A study of Homo sapiens with 15 samples.

Results

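The genes described here are 10 regulators of the G1 phase of the cell cycle: the D cyclins CCND1 and CCND3, the E cyclins CCNE1 and CCNE2, the kinases CDK4, CDK6 and CDK2, and the kinase inhibitors CDKN1B, CDKN2C and CDKN2D. They were chosen by name, with earlier results of these data known, and all 10 are in the deposited table of 26364 gene rows. Of these, 9 passed the filter of a mean of at least 1 TPM (the abundance of a transcript scaled for transcript length and library total) that left 12002 genes to test. CDKN2C did not pass it. The cells were RPMI-8226, an established line of human multiple myeloma, cultured with fetal bovine serum. Cells in 100 nM KB528 were sampled after 1, 3, 6 and 24 h, and cells in DMSO, the vehicle, at 0 h. KB528 is described in the series as an inhibitor of the lysine acetyltransferase activity of p300, a transcriptional coactivator. The genotype field reads KB528 for treated samples and WT for DMSO samples, and no sample is labelled with a genetic change. The 5 groups of 3 libraries make 15 libraries. The same 3 DMSO libraries are the comparison for every time, so the 4 comparisons with DMSO are not independent, and time in culture cannot be told apart from time in KB528. Nothing states that replicates were separate cultures, so the p-values rest on the spread among libraries, and that spread may be technical.

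D cyclins bind CDK4 and CDK6, and E cyclins bind CDK2. These complexes phosphorylate the retinoblastoma protein RB, which then releases E2F transcription factors, and E2F factors in turn activate the E cyclin genes and the genes of DNA replication. CIP/KIP inhibitors such as p27, the product of CDKN1B, bind cyclin-CDK complexes, while INK4 inhibitors such as p18 (CDKN2C) and p19 (CDKN2D) bind CDK4 and CDK6 alone. Myeloma cells nearly always carry high RNA of at least 1 D cyclin, and which one it is differs between tumours.

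Relative depth of the libraries, read from the steps between the lowest values, ran from 0.759 to 1.12 times that of DMSO replicate 1, and total depth is unknown. Between 11616 and 12356 genes reached 1 TPM in a library. The summed TPM of 9 plasma cell markers, each of which reached 1 TPM in at least 1 library, was 1943 to 1977 after 24 h in KB528, against 3753 to 3893 with DMSO. Of the markers of other cells, 3 of 3 for T cells, 2 of 3 for myeloid cells (LYZ and CSF1R) and 3 of 3 for fibroblasts stayed under 1 TPM in every library. Of 4 epithelial markers CDH1 did so too, while KRT18 was at 106 to 160 TPM and EPCAM at 95.9 to 122 TPM. The plasma cell markers thus moved with time in KB528, and their part in the results below was not tested.

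With DMSO, CDK4 was the most abundant of the 10 genes at 236 ± 0.743 TPM (SD, n = 3). It was followed by CDKN1B at 82.1 ± 5.07 TPM and CDK2 at 67.4 ± 4.89 TPM, and these 3 did not overlap one another. CCND3 (28.8 ± 2.15 TPM), CDK6 (22.9 ± 3.995 TPM) and CCND1 (21.9 ± 2.25 TPM) came next, and neighbours in this order overlapped. CCNE1 (12.3 ± 0.679 TPM) and CDKN2D (11.8 ± 0.396 TPM) overlapped as well, CCNE2 lay below them at 7.53 ± 0.693 TPM, and CDKN2C was at 0.0149 ± 0.0258 TPM. After 6 h in KB528 the order was CDK4, CDKN1B, CDK2, CCND3, CCNE1, CDKN2D, CDK6, CCNE2 and CCND1, with no overlap between neighbours except from CCNE1 to CCNE2. CCND1 was thus above both E cyclins with DMSO and below both at 6 h.

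Across the comparisons with DMSO, most of the 9 tested genes changed, and so did most of all tested genes. All 9 passed the moderated F test of limma over the time course, as did 93.6% of the 12002 tested genes. At 1 h, 2 of 9 rose (CDK6 and CDKN2D), against 15% of all tested genes, and 1 fell (CDKN1B), against 7.57%. At 3 h, 3 of 9 rose (CCNE1, CCNE2 and CDKN2D), against 24.9%, and 4 fell (CCND1, CDK4, CDK6 and CDKN1B), against 32.0%. At 6 h, 6 of 9 rose (CCND3, CCNE1, CCNE2, CDK2, CDKN1B and CDKN2D), against 44.4%, and 2 fell (CCND1 and CDK6), against 24.5%. At 24 h, 6 of 9 rose, the same 6 as at 6 h, against 56.1%, and 2 fell (CCND1 and CDK4), against 15.2%. A share of 9 genes is coarse, and nothing particular to these genes as a group is read from the counts.

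The all-gene shares depend on how libraries are scaled. TPM is a share of a fixed total, and relative to it the median tested gene moved, in order of time, by 0.04, -0.04, 0.12 and 0.23 on the log2(TPM + 1) scale, on which all fold changes below are given and which understates the change of low genes. Median-ratio scaling, which sets the typical gene to no change, left these medians at -0.0037, -0.05, -0.03 and 0.06. Under it, 15.5% of tested genes were higher and 14.9% lower at 1 h, 32.1% and 38.3% at 6 h, and 38.4% and 29.1% at 24 h. Of the 9 genes it then called 2 higher and 2 lower at 1 h, 5 and 3 at 6 h, and 6 and 3 at 24 h. The genes that changed sides of the threshold were CDK4, CDK6 and CDKN2D, which are given with both values where they are described. Spike-in scaling, which sets the added spike-in RNA to no change, was noisier: the spike-ins took 11.3 to 14.8% of the TPM in the 3 DMSO libraries alone. With this scaling the median tested gene moved, against DMSO and in order of time, by -0.0087, -0.25, 0.29 and 0.21. From 3 to 6 h it moved by 0.49, so this scaling bears on every step between those times. Under it 16 of the 40 calls made over these genes and 7 contrasts were lost. Against DMSO these were CCNE2 at 3 h, CDK4 at 3 and 24 h, CDK6 at 1 h, CDKN1B at 1, 3 and 24 h and CDKN2D at 1, 3 and 6 h. The others were the steps of CCNE1 and CCNE2 from 1 to 3 h, of CCND1 from 3 to 6 h, and of CCND1, CDK6 and CDKN2D from 6 to 24 h. These 16 kept their sign. A further 3, all between consecutive times, turned sign without passing the threshold. The median change of the 9 genes was 0.13, 0.0031, 0.37 and 0.51 at 1, 3, 6 and 24 h as deposited, and 0.08, -0.0020, 0.21 and 0.33 with median-ratio scaling.

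**Figure D1:**
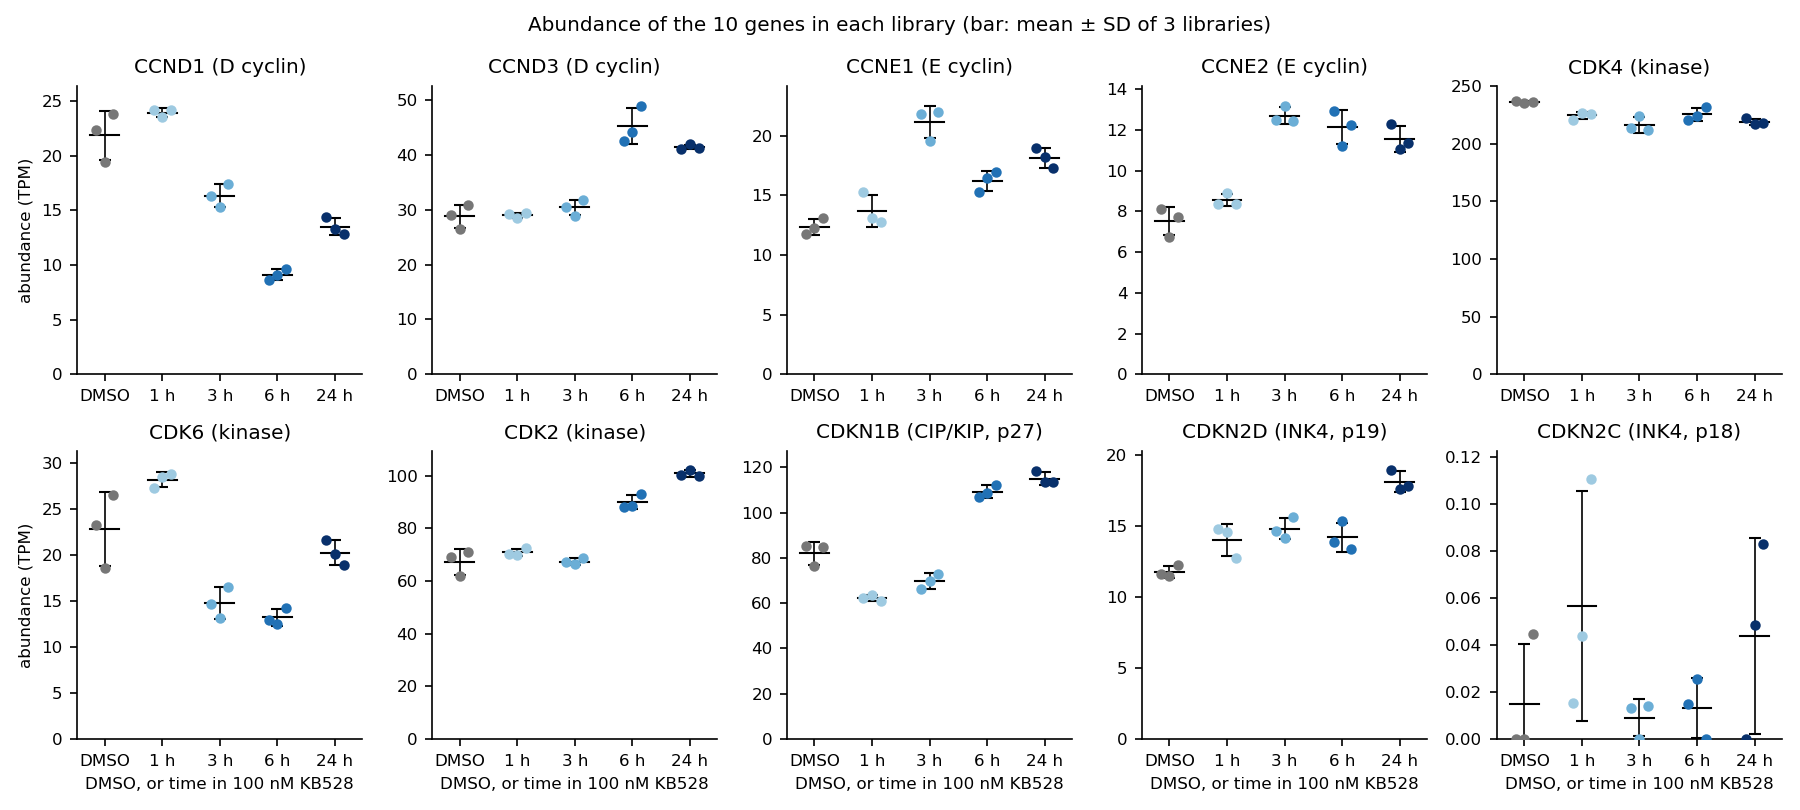
Abundance (TPM, linear axes from 0) of the 10 genes in each of the 15 libraries, with DMSO and then time in 100 nM KB528 along the horizontal axis; points are libraries and bars the mean ± SD of 3. CCND1 is lowest at 6 h while CCND3, CDK2 and CDKN1B are above the DMSO libraries at 6 and 24 h, CDK4 stays between 212 and 237 TPM, and CDKN2C does not exceed 0.111 TPM.

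The D cyclins moved in opposite directions. CCND1, the cyclin that a recurrent translocation activates in some myelomas, fell to 9.13 ± 0.509 TPM at 6 h, against 21.9 ± 2.25 TPM with DMSO (SD, n = 3 each). CCND3, a D cyclin that germinal centre B cells need, rose to 45.3 ± 3.30 TPM at 6 h, against 28.8 ± 2.15 TPM with DMSO. Their sum did not separate from DMSO at any time. It was 54.4 ± 3.79 TPM at 6 h and 55.0 ± 0.717 TPM at 24 h, against 50.7 ± 4.40 TPM with DMSO, and its libraries overlapped those of DMSO at all 4 times.

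CCND1 was at 22.4, 19.4 and 23.9 TPM in the DMSO libraries, at 24.2, 23.5 and 24.2 TPM at 1 h, at 16.3, 15.3 and 17.4 TPM at 3 h, at 8.63, 9.10 and 9.65 TPM at 6 h, and at 14.4, 13.3 and 12.9 TPM at 24 h. The 1 h libraries overlapped the DMSO ones, and every library from 3 h on lay below every DMSO library. The log2 fold change against DMSO was -0.40 ± 0.071 (SE) at 3 h, -1.17 ± 0.071 at 6 h and -0.65 ± 0.071 at 24 h, with limma's adjusted p of 0.000235, 2.26e-09 and 1.38e-06. The difference at 1 h was 0.13, with a 95% interval of -0.02 to 0.28. Between consecutive times the change was -0.53 from 1 to 3 h, -0.78 from 3 to 6 h and 0.52 from 6 to 24 h, each past the threshold. With spike-in scaling the step from 3 to 6 h was -0.39 (adjusted p = 0.07) and that from 6 to 24 h 0.33 (adjusted p = 0.199). The 24 h libraries lay between those of 6 h and those of DMSO. DMSO replicate 2 had the lowest CCND1 of its group, and each of these calls as deposited held when any 1 library was left out. Exons of LTO1, listed as ORAOV1 in the table, cover 10.3% of the exon bases of CCND1 on the opposite strand. LTO1 was at 16.5 ± 0.863 TPM at 6 h, against 12.3 ± 0.733 TPM with DMSO, and its part in the CCND1 level was not tested.

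CCND3 was at 28.98, 26.5 and 30.8 TPM in the DMSO libraries, at 29.1, 28.5 and 29.4 TPM at 1 h, at 30.5, 28.9 and 31.8 TPM at 3 h, at 42.6, 44.2 and 48.9 TPM at 6 h, and at 41.2, 41.9 and 41.3 TPM at 24 h. Its libraries up to 3 h overlapped DMSO, and all those of 6 and 24 h lay above it. Against DMSO its log2 fold change was 0.63 ± 0.059 at 6 h (adjusted p = 2.19e-07) and 0.51 ± 0.059 at 24 h (adjusted p = 2.34e-06). At 1 h it was 0.01 (95% interval -0.11 to 0.14) and at 3 h 0.08 (-0.05 to 0.20). The step from 3 to 6 h was 0.56 (adjusted p = 2.05e-06). From 1 to 3 h it was 0.06 as deposited (adjusted p = 0.392) and 0.11 with median-ratio scaling (adjusted p = 0.0208), and with length correction the 3 h value of 0.10 against DMSO passed the threshold as well (adjusted p = 0.0402). The ratio of CCND3 to CCND1 was 4.95 ± 0.108 at 6 h and 3.08 ± 0.184 at 24 h, against 1.32 ± 0.0417 with DMSO.

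CCND2, the D cyclin outside the 10 genes, was the most abundant of the 3 in every group. It was at 153 ± 11.9 TPM with DMSO, 193 ± 1.59 TPM at 1 h, 189 ± 11.01 TPM at 3 h, 157 ± 7.99 TPM at 6 h and 123 ± 2.19 TPM at 24 h. It rose at 1 h (log2 fold change 0.33, adjusted p = 0.000597) and at 3 h (0.30, adjusted p = 0.000272), and fell at 24 h (-0.31, adjusted p = 0.000146). At 6 h the value was 0.03 as deposited and -0.13 with median-ratio scaling (adjusted p = 0.0035). The summed D cyclins were 246 ± 1.21 TPM at 1 h and 178 ± 2.81 TPM at 24 h, against 204 ± 16.3 TPM with DMSO, with no overlap of libraries in either case. At 24 h CCND2 made up 69.2 ± 0.214% of this sum, CCND3 23.2 ± 0.301% and CCND1 7.58 ± 0.381%, against 75.2 ± 0.232%, 14.1 ± 0.0691% and 10.7 ± 0.288% with DMSO. At 6 h the CCND1 share was lowest, at 4.32 ± 0.0415%. A comparison of 3 libraries with 3 cannot give an exact two-sided permutation p below 0.1, so shares, sums and ratios are described by their overlap.

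**Figure D2:**
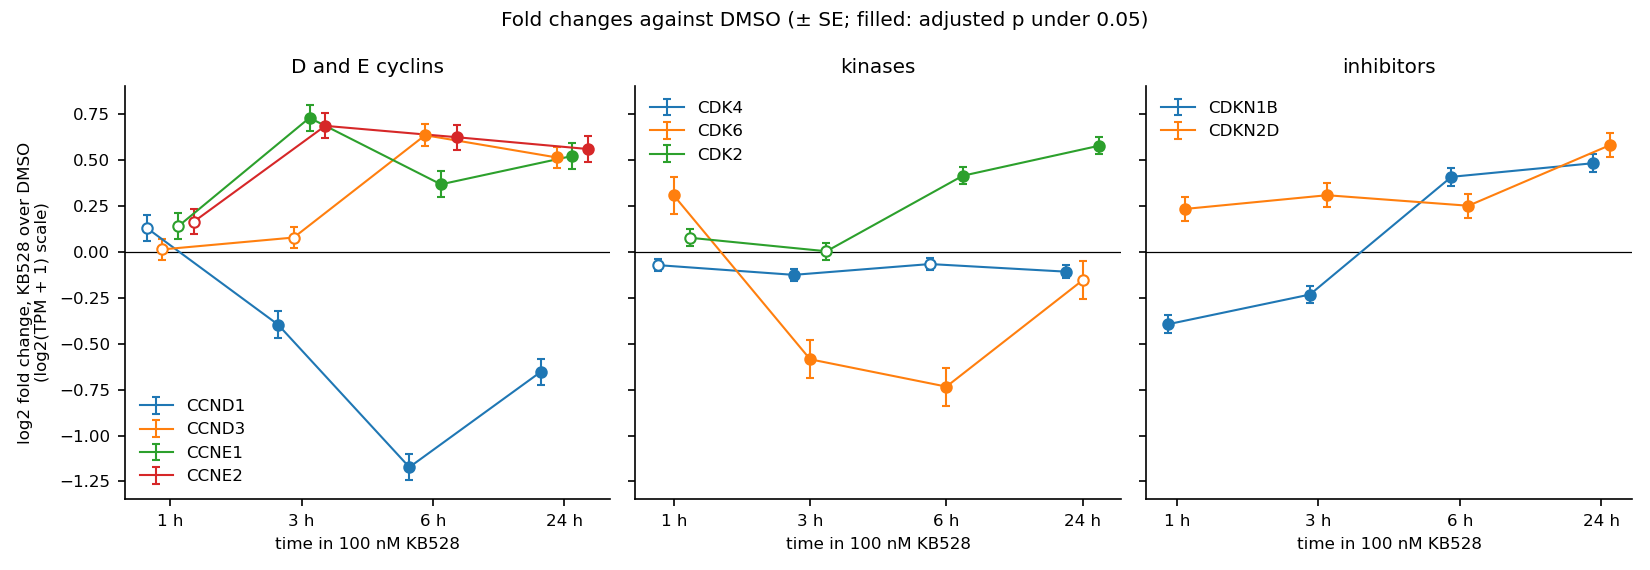
Log2 fold change of the 9 tested genes, KB528 over DMSO on the log2(TPM + 1) scale (vertical axis, ± SE), against time in KB528, with filled points where limma's adjusted p is under 0.05. CCND1 and CDK6 are lowest at 6 h (-1.17 and -0.73), the E cyclins are highest at 3 h (0.73 and 0.69), CDKN1B is below 0 at 1 and 3 h and above it at 6 and 24 h, and CDK4 stays within 0.13 of 0.

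Both E cyclins passed the test from 3 h on. CCNE1 reached 21.1 ± 1.35 TPM and CCNE2 12.7 ± 0.402 TPM at 3 h, against 12.3 ± 0.679 TPM and 7.53 ± 0.693 TPM with DMSO. Their sum was 33.8 ± 0.946 TPM at 3 h, 28.3 ± 0.773 TPM at 6 h and 29.7 ± 1.36 TPM at 24 h, against 19.9 ± 0.894 TPM with DMSO, and at 1 h it was 22.3 ± 1.28 TPM. No treated library overlapped DMSO at any of the 4 times. The make-up of the sum did not separate: CCNE1 was 62.4 ± 2.28% of it at 3 h and 57.2 ± 2.72% at 6 h, against 62.1 ± 2.73% with DMSO, and libraries overlapped DMSO at all 4 times.

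CCNE1 was at 11.7, 12.2 and 13.1 TPM in the DMSO libraries, at 15.3, 13.1 and 12.8 TPM at 1 h, at 21.9, 19.6 and 22.0 TPM at 3 h, at 15.3, 16.4 and 16.9 TPM at 6 h, and at 18.97, 18.2 and 17.3 TPM at 24 h. The 3 h libraries were the highest of the course, and those of 1 h overlapped DMSO. In log2 terms the change was 0.73 ± 0.071 at 3 h (adjusted p = 5.44e-07), 0.37 ± 0.071 at 6 h (adjusted p = 0.00029) and 0.52 ± 0.071 at 24 h (adjusted p = 1.17e-05). CCNE1 rose between 1 and 3 h (0.59, adjusted p = 7.88e-06, but 0.43 with an adjusted p of 0.12 under spike-in scaling) and fell between 3 and 6 h (-0.36, adjusted p = 0.00054, but 0.03 with spike-in scaling). At 1 h the difference from DMSO was 0.14, with a 95% interval of -0.01 to 0.29.

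CCNE2 was at 8.10, 6.76 and 7.72 TPM in the DMSO libraries, at 8.38, 8.89 and 8.36 TPM at 1 h, at 12.5, 13.2 and 12.4 TPM at 3 h, at 12.9, 11.2 and 12.3 TPM at 6 h, and at 12.3, 11.04 and 11.3 TPM at 24 h. Every treated library lay above every DMSO library, and those of 6 h overlapped those of 3 and of 24 h. At 1 h the log2 difference was 0.16 (95% interval 0.02 to 0.31, adjusted p = 0.0976). Later log2 fold changes were 0.69 ± 0.068 at 3 h (adjusted p = 7.00e-07), 0.62 ± 0.068 at 6 h (adjusted p = 1.17e-06) and 0.56 ± 0.068 at 24 h (adjusted p = 4.12e-06). Between 3 and 6 h it moved by -0.06 (95% interval -0.21 to 0.08) as deposited and by -0.21 with median-ratio scaling (adjusted p = 0.00823). Exons of INTS8, an Integrator subunit, cover 37.0% of the exon bases of CCNE2 on the opposite strand in GENCODE. The libraries are strand-specific, but no source used here says whether counting used strand, so levels of such overlapping genes are uncertain. INTS8 was at 22.7 ± 0.288 TPM at 3 h, 28.1 ± 0.700 TPM at 6 h and 34.4 ± 1.81 TPM at 24 h, against 26.3 ± 1.16 TPM with DMSO. It thus lay below DMSO at 3 h and above it at 6 and 24 h, without overlap, and its part in the CCNE2 level was not tested.

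Of the kinases, CDK6 fell and then rose again, CDK2 rose late, and CDK4 moved least of the 9 genes. CDK4 was at 237, 235 and 236 TPM in the DMSO libraries, at 221, 227 and 226 TPM at 1 h, at 213, 224 and 212 TPM at 3 h, at 221, 224 and 232 TPM at 6 h, and at 222, 217 and 218 TPM at 24 h. Every treated library lay below every DMSO library, by a small margin. CDK4 had a log2 fold change of -0.07 ± 0.034 at 1 h (adjusted p = 0.139), -0.13 ± 0.034 at 3 h (adjusted p = 0.00529), -0.07 ± 0.034 at 6 h (adjusted p = 0.0929) and -0.11 ± 0.034 at 24 h (adjusted p = 0.0101). With median-ratio scaling CDK4 was lower at all 4 times, by -0.12, -0.13, -0.23 and -0.30. From 3 to 6 h CDK4 moved by 0.06 as deposited (adjusted p = 0.153). That step was -0.099 with median-ratio scaling (adjusted p = 0.0482) and 0.47 with spike-in scaling (adjusted p = 0.0338), so its direction depended on the scaling. Fitted on the 3 h and DMSO libraries alone, the 3 h call was lost (adjusted p = 0.0613). TSPAN31 exons cover 43.2% of the exon bases of CDK4 on the opposite strand. TSPAN31, a tetraspanin, was at 16.3 ± 0.666 TPM at 3 h and 41.2 ± 0.957 TPM at 24 h, against 21.7 ± 0.443 TPM with DMSO, and its part in the CDK4 level was not tested.

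CDK6 was at 23.3, 18.7 and 26.6 TPM in the DMSO libraries, at 27.4, 28.5 and 28.9 TPM at 1 h, at 14.7, 13.1 and 16.6 TPM at 3 h, at 12.9, 12.5 and 14.2 TPM at 6 h, and at 21.7, 20.1 and 18.96 TPM at 24 h. All libraries of 3 and 6 h lay below DMSO, and those of 24 h overlapped it. CDK6 had a log2 fold change of -0.58 ± 0.10 at 3 h (adjusted p = 0.000194) and -0.73 ± 0.10 at 6 h (adjusted p = 1.42e-05). From 1 to 3 h CDK6 fell by 0.89 (adjusted p = 5.28e-06) and from 6 to 24 h it rose by 0.58 (adjusted p = 0.000144), though by 0.38 with spike-in scaling (adjusted p = 0.128). At 24 h the difference from DMSO was -0.15 (95% interval -0.37 to 0.07) as deposited. It was -0.33 with median-ratio scaling (adjusted p = 0.00213) and -0.45 with length correction (adjusted p = 1.18e-06). Without DMSO replicate 2 it was -0.29 (adjusted p = 0.0103). Whether CDK6 was back at its DMSO level by 24 h thus depended on the processing.

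The higher CDK6 at 1 h is the least stable of these calls. The log2 fold change was 0.31 ± 0.10 (adjusted p = 0.0442), and the call held without DMSO replicate 3, KB528 3 h replicate 2 or 3, or KB528 6 h replicate 3, and was lost without any of the other 11 libraries. Without DMSO replicate 2, which had the lowest CDK6 of its group, the value was 0.17 (adjusted p = 0.207). Without DMSO replicate 1 or any of the 3 libraries of 1 h it ran from 0.29 to 0.33. Fitted with only the 1 h and DMSO libraries, its adjusted p was 0.0823, and without a filter on low genes 0.109.

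CDK6 made up 11.2 ± 0.166% of the summed CDK4 and CDK6 at 1 h, against 8.81 ± 1.39% with DMSO. It made up 6.42 ± 0.861% at 3 h, 5.54 ± 0.239% at 6 h and, after 24 h, 8.47 ± 0.457%. The share was above DMSO at 1 h, below it at 3 and 6 h, and overlapped it at 24 h. The sum was 239 ± 6.50 TPM at 6 h, against 259 ± 4.61 TPM with DMSO, without overlap.

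**Figure D3:**
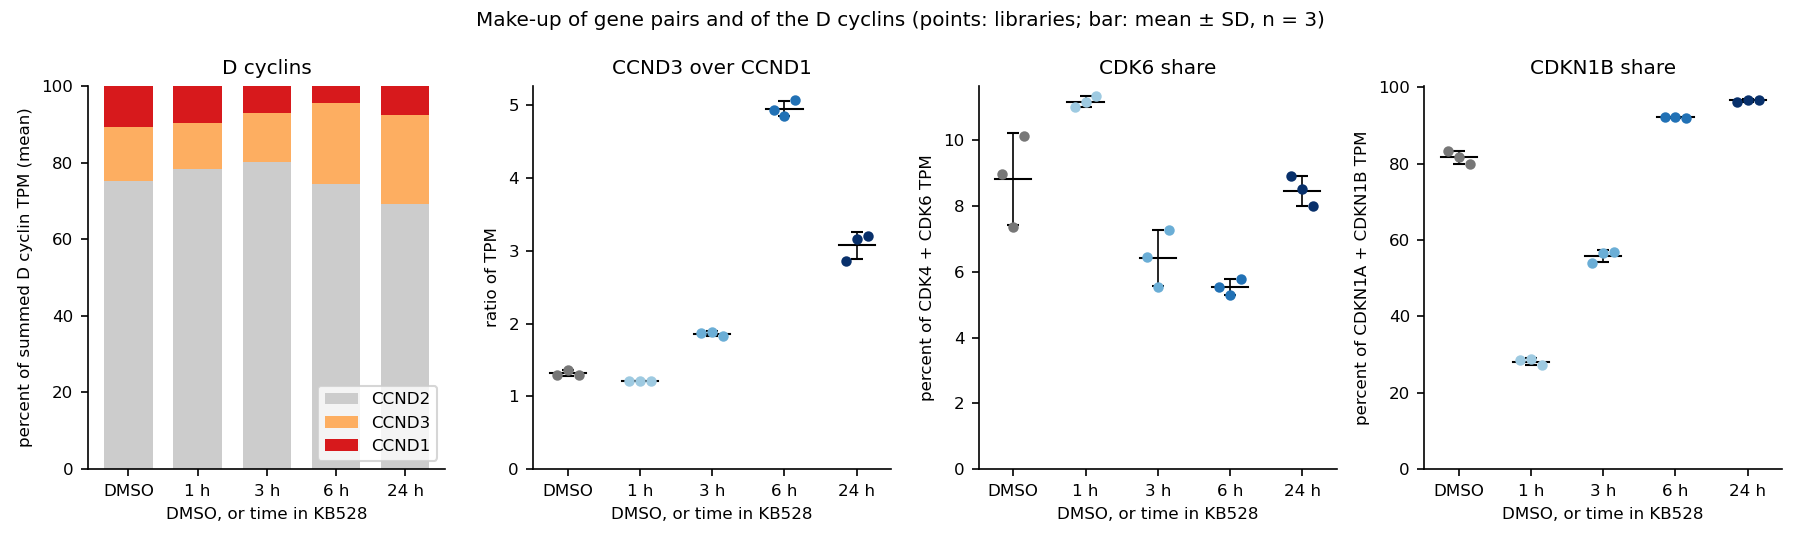
Shares of the summed TPM of the D cyclins (stacked bars, mean of 3 libraries, percent), the ratio of CCND3 to CCND1, CDK6 as a percent of CDK4 and CDK6, and CDKN1B as a percent of CDKN1A and CDKN1B, for DMSO and each time in KB528; points are libraries and bars the mean ± SD. The ratio reaches 4.95 at 6 h, the CDK6 share is lowest at 6 h (5.54%), and the CDKN1B share is lowest at 1 h (28.2%).

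The promoters of CDK4 and CDK6 are shown because these kinases share their cyclin partners and inhibitors, while their levels ran differently over the hours in which MYC fell. MYC, a transcription factor that binds the E-box CACGTG, was at 660 ± 6.61 TPM at 1 h, 267 ± 14.6 TPM at 3 h, 235 ± 14.5 TPM at 6 h and 315 ± 4.09 TPM at 24 h, against 808 ± 71.5 TPM with DMSO. RefSeq promoter sequence of GRCh38.p14 was found for 7 of the 10 genes, and the 250 bases before the gene start were searched on both strands. The CDK4 window, on the minus strand of chromosome 12, holds 3 E-boxes, which start 216, 196 and 101 bases before the gene start. Each is printed with 12 bases on either side and the E-box in capitals, and all 3 lie inside an exon of another CDK4 transcript in GENCODE. The printed stretches of the first and second, at chr12:57752509-57752538 and chr12:57752489-57752518, overlap in their flanks, while the E-boxes themselves do not. The third stretch is at chr12:57752394-57752423.
CDK4 E-box 1: atgtcaagcggtCACGTGtgatagcaacag
CDK4 E-box 2: atagcaacagatCACGTGgctgccatcgcc
CDK4 E-box 3: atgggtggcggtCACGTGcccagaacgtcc
CDK6 has 2 promoters in RefSeq, and neither window holds an E-box. The first window holds 3 GC boxes and the second 0, and only the first is shown. Bases 250 to 22 before its gene start, at chr7:92836595-92836823 on the minus strand, are printed with the GC box GGGCGG, in either orientation, in capitals.
CDK6 promoter: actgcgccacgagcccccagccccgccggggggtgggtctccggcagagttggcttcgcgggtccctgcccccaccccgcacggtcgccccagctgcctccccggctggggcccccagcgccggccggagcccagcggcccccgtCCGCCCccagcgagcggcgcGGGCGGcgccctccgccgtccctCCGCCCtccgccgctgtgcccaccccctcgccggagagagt
Among the 35116 promoters of the table, 6.34% hold an E-box in this window and 0.0797% hold at least 3, while 42.6% hold a GC box and 13.9% at least 3. The E2F site (TTTCCCGC, TTTCGCGC, TTTGCCGC or TTTGGCGC), found in 2.79% of promoters, was in no window of the 7 genes, nor were the CRE TGACGTCA (1.65%), the AP-1 site TGACTCA (4.2%) and the CHR element TTTGAA (13.3%). These are matches of letters in a fixed window and show neither binding nor its absence, and no link between MYC and either gene was tested.

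CDK2, the partner of the E cyclins, was at 69.0, 61.9 and 71.2 TPM in the DMSO libraries, at 70.3, 70.1 and 72.6 TPM at 1 h, at 67.2, 66.4 and 68.7 TPM at 3 h, at 88.3, 88.6 and 93.0 TPM at 6 h, and at 100.4, 102 and 100.03 TPM at 24 h. Libraries of 1 and 3 h overlapped DMSO, and all later ones lay above it. CDK2 had a log2 fold change of 0.41 ± 0.047 at 6 h (adjusted p = 1.71e-06) and 0.58 ± 0.047 at 24 h (adjusted p = 8.10e-08). At 1 h it was 0.08 (95% interval -0.02 to 0.18) and at 3 h 0.0031 (-0.10 to 0.10). CDK2 rose by 0.41 from 3 to 6 h (adjusted p = 4.25e-06) and by 0.16 from 6 to 24 h (adjusted p = 0.00644). The step from 6 to 24 h was 0.07 after correction for transcript length (adjusted p = 0.0624) and -0.04 with spike-in scaling. Exons of the gene AC025162.1 cover 14.5% of the exon bases of CDK2 and those of PMEL 2.29%, both on the opposite strand, and PMEL was at 2.25 ± 0.0812 TPM at 24 h, against 1.44 ± 0.216 TPM with DMSO. The ratio of CDKN1B to CDK2 was 0.877 ± 0.0351 at 1 h and 1.03 ± 0.0417 at 3 h, against 1.22 ± 0.0235 with DMSO. It was 1.21 ± 0.00943 at 6 h, where it overlapped DMSO, and 1.14 ± 0.0356 at 24 h.

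The inhibitors differed at the early times. CDKN1B, which encodes p27, was at 85.2, 76.3 and 84.9 TPM in the DMSO libraries, at 62.5, 63.4 and 60.8 TPM at 1 h, at 66.3, 69.9 and 73.0 TPM at 3 h, at 107, 109 and 112 TPM at 6 h, and at 118, 113 and 113 TPM at 24 h. It lay below every DMSO library at 1 and 3 h and above every one at 6 and 24 h. CDKN1B had a log2 fold change of -0.39 ± 0.049 at 1 h (adjusted p = 3.54e-05), -0.23 ± 0.049 at 3 h (adjusted p = 0.000841), 0.41 ± 0.049 at 6 h (adjusted p = 2.77e-06) and 0.48 ± 0.049 at 24 h (adjusted p = 6.42e-07). CDKN1B rose by 0.64 from 3 to 6 h (adjusted p = 5.94e-08). Its 1 h decrease and its 6 h increase kept their calls when any 1 library was left out. The step of 0.16 from 1 to 3 h (adjusted p = 0.0131) was 0.13 without KB528 3 h replicate 3 (adjusted p = 0.0616) and -0.0030 with spike-in scaling.

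CDKN1A, which encodes p21 and is the other broadly expressed CIP/KIP inhibitor, ran the opposite way. It was at 159 ± 3.56 TPM at 1 h, 55.3 ± 1.37 TPM at 3 h, 9.30 ± 0.370 TPM at 6 h and 4.10 ± 0.465 TPM at 24 h, against 18.4 ± 2.44 TPM with DMSO. The log2 fold change was 3.05 ± 0.077 at 1 h (adjusted p = 3.17e-13) and -1.93 ± 0.077 at 24 h (adjusted p = 5.33e-11). CDKN1B was therefore 28.2 ± 0.860% of the summed CDKN1A and CDKN1B at 1 h and 96.6 ± 0.290% at 24 h, against 81.7 ± 1.69% with DMSO. The sum was 221 ± 2.44 TPM at 1 h and 119 ± 3.32 TPM at 24 h, against 101 ± 6.59 TPM with DMSO, and did not overlap DMSO at any time. CDKN1C, which encodes p57, was at 8.60 ± 0.555 TPM at 6 h, against 14.9 ± 0.930 TPM with DMSO (log2 fold change -0.73, adjusted p = 5.00e-07).

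CDKN2D, which encodes the INK4 protein p19, was at 11.6, 11.5 and 12.2 TPM in the DMSO libraries, at 14.8, 14.6 and 12.7 TPM at 1 h, at 14.6, 14.2 and 15.6 TPM at 3 h, at 13.9, 15.3 and 13.4 TPM at 6 h, and at 18.9, 17.6 and 17.8 TPM at 24 h. Every treated library lay above every DMSO library. The log2 fold change was 0.23 ± 0.066 at 1 h (adjusted p = 0.0199), 0.31 ± 0.066 at 3 h (adjusted p = 0.000993), 0.25 ± 0.066 at 6 h (adjusted p = 0.00337) and 0.58 ± 0.066 at 24 h (adjusted p = 2.05e-06). With median-ratio scaling the 6 h value was 0.10 (adjusted p = 0.17). The 1 h call was lost without DMSO replicate 1 (adjusted p = 0.0591), DMSO replicate 2 (0.0579), KB528 1 h replicate 1 (0.0855) or KB528 1 h replicate 2 (0.0825). CDKN2D rose by 0.33 from 6 to 24 h (adjusted p = 0.00041), though by 0.14 with spike-in scaling (adjusted p = 0.631).

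CDKN2C, which encodes p18, was almost undetected. Taking its lowest value above 0 as 1 read, and correcting for relative depth, its values were whole reads within 0.05 reads, from 0 to 6 reads in a library and 26 reads in all 15. In the 5 libraries listed at 0, a count of 0 allows up to 0.0377 to 0.052 TPM (3 reads, counting error only). Group means were 0.0149 TPM with DMSO and 0.0567, 0.0092, 0.0134 and 0.0439 TPM at 1, 3, 6 and 24 h. The libraries of each time overlapped DMSO, and no change could be measured at this depth. Of the other INK4 genes, CDKN2A, whose row joins the transcripts of p16 and p14ARF, was at 156 ± 5.21 TPM at 6 h, against 179 ± 10.3 TPM with DMSO (log2 fold change -0.19, adjusted p = 0.00174). CDKN2B was near 1 TPM with DMSO and reached 2.14 ± 0.321 TPM at 3 h, against 0.968 ± 0.174 TPM with DMSO (log2 fold change 0.67, adjusted p = 0.00010). The CDKN2A row was the highest of the 4 INK4 rows in every group.

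Changes between consecutive times were tested in the same fit. From 1 to 3 h, 3 of 9 rose (CCNE1, CCNE2 and CDKN1B), against 15.2% of tested genes, and 2 fell (CCND1 and CDK6), against 31.8%. From 3 to 6 h, 3 rose (CCND3, CDK2 and CDKN1B), against 42.3%, and 2 fell (CCND1 and CCNE1), against 13.7%. With median-ratio scaling the 3 to 6 h counts were 3 higher, against 25.9%, and 6 lower, against 29.9%. The genes added to those lower were CCNE2, CDK4, CDK6 and CDKN2D. CDK6 moved by -0.15 as deposited (adjusted p = 0.235), -0.30 with median-ratio scaling (adjusted p = 0.00626) and 0.24 with spike-in scaling (adjusted p = 0.272). CDKN2D moved by -0.06 (adjusted p = 0.482), -0.21 (adjusted p = 0.0122) and 0.33 (adjusted p = 0.126) in the same order. From 6 to 24 h, 4 rose (CCND1, CDK2, CDK6 and CDKN2D), against 41.0%, and 0 fell, against 26.0%. At an unadjusted p under 0.05, 0 of the 9 fell in that step as well. CCND1 and CDK6 were the 2 genes that fell early and rose again between 6 and 24 h.

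Other genes of the pathway were taken from lists chosen with earlier results of these data known, and are described by counts and medians. Of 13 RB pocket proteins and E2F or DP factors, 5 rose and 5 fell at 3 h, 8 rose and 3 fell at 6 h, and 10 rose and 1 fell at 24 h. All tested genes had 24.9% higher and 32.0% lower at 3 h, 44.4% and 24.5% at 6 h, and 56.1% and 15.2% at 24 h. All list counts as deposited are read against these shares. With median-ratio scaling, 3262 of 11998 tested genes were higher and 4227 lower at 3 h. The shares with this scaling were 32.1% and 38.3% at 6 h, and 38.4% and 29.1% at 24 h. List counts with median-ratio scaling are read against these. For the 13 genes they were 7 and 5 at 3 h, 8 and 4 at 6 h, and 8 and 3 at 24 h. E2F8, a repressive E2F, was at 35.7 ± 1.53 TPM at 6 h, against 16.03 ± 1.62 TPM with DMSO (log2 fold change 1.11, adjusted p = 1.21e-09). E2F1, an activating E2F, was at 109.8 TPM at 6 h, against 72.0 TPM with DMSO (0.60, adjusted p = 6.55e-08). E2F5, a partner of the pocket protein p130, was at 6.67 ± 0.511 TPM at 6 h, against 15.8 ± 0.758 TPM with DMSO (-1.14, adjusted p = 2.12e-09). Members of this list therefore moved in both directions at once.

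Of 19 E2F-regulated replication genes, 5 rose and 0 fell at 1 h, 11 rose and 2 fell at 3 h, 17 rose and 0 fell at 6 h, and 13 rose and 1 fell at 24 h. The list's median was 0.41 at 6 h and 0.18 at 24 h, against 0.12 and 0.23 for all tested genes. With median-ratio scaling the list's medians were 0.24 and -0.0094, so at 24 h the list's sign turned with the scaling, and the counts were 12 higher and 2 lower at 3 h, 16 and 2 at 6 h, and 8 and 4 at 24 h. RRM2, a subunit of ribonucleotide reductase, was at 205 ± 1.29 TPM at 1 h, 295 ± 6.91 TPM at 3 h, 314 ± 11.5 TPM at 6 h and 199 ± 2.92 TPM at 24 h, against 141 ± 13.9 TPM with DMSO. ORC1, of the origin recognition complex, was at 142 TPM at 6 h, against 78.3 TPM with DMSO (log2 fold change 0.85, adjusted p = 1.93e-09). TYMS, thymidylate synthase, was at 359 TPM at 24 h, against 238 TPM with DMSO (0.59, adjusted p = 2.77e-09). At 3 h, 11 of these 19 genes had passed the test upwards, against 24.9% of all tested genes.

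Of 10 tested S, G2 and M phase cyclins and CDK1 switches, 1 rose and 3 fell at 1 h, 2 rose and 4 fell at 3 h, 9 rose and 0 fell at 6 h, and 8 rose and 1 fell at 24 h. With median-ratio scaling 1 was higher and 6 lower at 1 h, 2 and 3 at 3 h, 9 and 0 at 6 h, and 7 and 2 at 24 h. At 1 h, 15% of all tested genes were higher and 7.57% lower as deposited, and 15.5% and 14.9% with median-ratio scaling. CCNB1, the mitotic cyclin B1, was at 195 ± 2.33 TPM at 1 h, 215 ± 8.17 TPM at 3 h, 371 ± 7.04 TPM at 6 h and 273 ± 3.67 TPM at 24 h, against 231 ± 10.5 TPM with DMSO. CCNA2, the S and G2 phase cyclin, was at 136 TPM at 6 h, against 83.7 TPM with DMSO (log2 fold change 0.70, adjusted p = 7.57e-09). CCNB2 was at 346 TPM at 24 h, against 231 TPM with DMSO (0.58, adjusted p = 8.50e-09). The list's median was 0.66 at 6 h and 0.40 at 24 h as deposited, and 0.50 and 0.21 with median-ratio scaling. Many of these genes, though not all, are most active past G1. In bulk RNA fewer cells of a phase and less RNA per cell cannot be told apart. At 3 h, when both E cyclins were higher, 2 of these 10 genes rose and 4 fell. All tested genes had 24.9% higher and 32.0% lower at that time. The list's median was then 0.06, against -0.04 for all tested genes. At 6 h, when CCND3, CDK2 and CDKN1B were higher, 9 rose and 0 fell, against 44.4% and 24.5%. The part of cell cycle phase in these results was not tested.

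**Figure D4:**
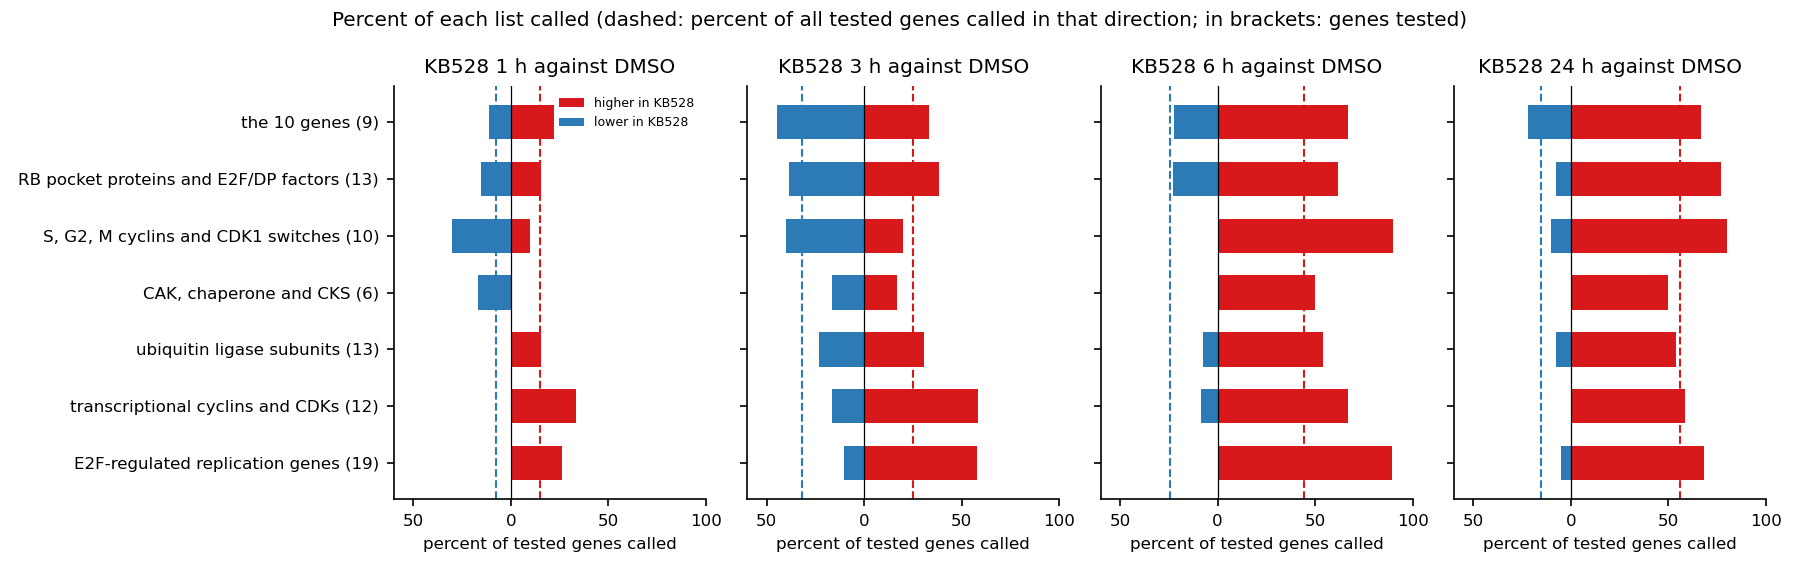
Percent of the tested genes of each list (number tested in brackets) called higher in KB528 (red, to the right) or lower (blue, to the left) against DMSO at each time, with dashed lines at the percent of all 12002 tested genes called in that direction. At 6 h, 17 of 19 replication genes and 9 of 10 S, G2 and M phase genes were higher, while the G1 genes had 6 higher and 2 lower.

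Of 13 ubiquitin ligase subunits that turn over G1 cyclins and p27, 7 rose and 1 fell at 6 h and again 7 and 1 at 24 h, with medians of 0.15 and 0.14. With median-ratio scaling the counts were 4 and 2 at 6 h and 3 and 3 at 24 h, and the medians -0.0071 and -0.02. Those with the smallest adjusted p were CUL4B, a cullin scaffold, at 33.5 TPM at 24 h, against 22.1 TPM with DMSO, AMBRA1, a receptor for D cyclins, at 14.4 TPM at 6 h, against 9.25 TPM, and RNF123, a ligase subunit for p27, at 37.6 TPM at 24 h, against 27.1 TPM. SKP2, the F-box protein that targets p27, was at 27.1 ± 1.00 TPM at 6 h, against 20.9 ± 2.32 TPM with DMSO, and was added after its values were seen. Of 6 subunits of the CDK-activating kinase, the chaperone and the CKS proteins, 3 rose and 0 fell at 6 h, and CDK7, MNAT1 and CCNH, which together form the CDK-activating kinase, had the smallest adjusted p. With median-ratio scaling 1 was higher and 1 lower at 6 h, the list's median of 0.17 became 0.0059, and at 6 h CDK7 kept its call while MNAT1 (0.21, adjusted p = 0.0651) and CCNH (0.00087, adjusted p = 0.989) lost theirs. CDK7 was at 54.7 TPM at 6 h, against 38.6 TPM with DMSO (log2 fold change 0.50, adjusted p = 3.08e-06). Of 12 transcriptional cyclins and CDKs, 7 rose and 2 fell at 3 h and 8 rose and 1 fell at 6 h, or 8 and 2 at 3 h and 6 and 4 at 6 h with median-ratio scaling, with CDK12, CDK8 and CCNL2 at the smallest adjusted p. CDK12, which phosphorylates RNA polymerase II, was at 36.4 TPM at 6 h, against 20.9 TPM with DMSO (log2 fold change 0.78, adjusted p = 2.40e-06). Of the 3 FOXO factors, which activate CDKN1B, 1 rose and 1 fell at 6 h, or 0 and 1 with median-ratio scaling. FOXO3 was at 54.8 TPM at 1 h, 20.5 TPM at 3 h, 21.9 TPM at 6 h and 34.8 TPM at 24 h, against 40.9 TPM with DMSO. Its log2 fold change at 6 h was -0.86 (adjusted p = 1.51e-06). FOXO4 was at 18.7 TPM at 24 h, against 10.3 TPM with DMSO (0.80, adjusted p = 4.12e-06). The part of the FOXO factors in the CDKN1B level was not tested.

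The tested genes of at least 5 TPM whose log2 levels ran most like each of the 9 were found by Pearson's r over the 15 libraries, among 9320 genes. These r values are descriptions, since the libraries fall into 5 groups. For CCND1 they were STS (r = 0.996) and PKP2 (0.990), for CCND3 KIF22 (0.995) and PARP16 (0.989), and for CDK6 AHNAK (0.997) and TBC1D4 (0.993). For CDK2 they were BROX (0.992) and CYLD (0.988), for CDKN1B PHF13 (0.987) and NFE2L2 (0.985), and for CCNE2 ZNF708 (0.966) and KLHL20 (0.962). For CCNE1 they were GABPB1 (0.944) and ADO (0.943), for CDKN2D MARCKSL1 (0.931) and FDXR (0.927), and for CDK4, which varied least, FH (0.897) and TLCD1 (0.895). Among the 9 genes themselves, CCND1 and CCND3 ran most oppositely (r = -0.870), CCND3 and CDK2 most alike (0.918), and CCNE1 and CCNE2 had r = 0.852.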

How the data were processed

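Polyadenylated RNA of 15 libraries was sequenced with strand-specific kits, per the labels' protocols. STAR, featureCounts, FastQC, MultiQC and the build hg19 are named, without versions, in the submitters' processing notes. The deposited values are TPM, made by the authors, in 1 table of 26364 genes and 92 spike-in rows. The DMSO columns carry a name for untreated cells at 0 h and were matched to samples on time and number; 0 value columns lack a sample. TPM holds no counts, so total depth is unknown, and relative depth came from ratios between values up to 0.1 TPM.

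Values were tested as log2(TPM + 1), a pseudocount of 1, for genes averaging 1 TPM or more, with limma 3.58.1 in R 4.3.3 (lmFit, eBayes with a variance trend), all 15 libraries in 1 fit. P-values were adjusted by Benjamini-Hochberg over all 12002 tested genes within each contrast, with a threshold of 0.05. The fit was run on simulated data in which few genes changed, and only in the 6 h group. In the real data most genes changed, so that run does not bear on the scaling. Members and lists were chosen with earlier results of these data known. The text names all 10 genes, CCND2 and CDKN1A, up to 3 genes of each list by smallest adjusted p at 6 or 24 h, and the 2 genes most alike each member. MYC and the genes overlapping members on the opposite strand were added after their values were seen. Exon overlaps and transcript lengths came from GENCODE on GRCh38 and promoters from RefSeq. Tables and figures were made with Python 3.11.15, pandas 2.3.3 and matplotlib 3.10.9. Alternatives were another pseudocount, 2 filters, 3 scalings, a length correction, a fit of the compared groups alone, a replicate block, a fit with no variance trend, and each library left out. The result of 1 marker list is not reported here.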

Additional observations from a re-analysis of the deposited data

Results flagged for a closer look

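Of 27 changes between consecutive times tested over the 9 genes, 14 passed limma's adjusted threshold, so the difference from the shared DMSO libraries was not the same at those times. Each compares KB528 libraries of 2 times, and time in culture cannot be told apart from time in KB528. From 1 to 3 h these were CCND1 (log2 change -0.53), CDK6 (-0.89), CCNE1 (0.59), CCNE2 (0.52) and CDKN1B (0.16). From 3 to 6 h they were CCND1 (-0.78), CCNE1 (-0.36), CCND3 (0.56), CDK2 (0.41) and CDKN1B (0.64). From 6 to 24 h they were CCND1 (0.52), CDK6 (0.58), CDK2 (0.16) and CDKN2D (0.33). Groups of 3 libraries are too small for a test of single outlying libraries.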

How the results depend on the processing

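Of 63 log2 changes (9 genes, 7 contrasts), 40 passed the threshold, and 0 of these 40 were past it in the opposite direction under any alternative run. Among the changes not called as deposited, CDK4 from 3 to 6 h (0.059) was called in both directions. It was lower with median-ratio scaling (-0.099, adjusted p = 0.0482) and higher with spike-in scaling (0.47, adjusted p = 0.0338). All 63 kept direction and call with a filter of 5 TPM and with a pseudocount of 0.1. Same-numbered libraries of different groups deviated together with correlations of -0.157 to 0.43 (median 0.0055, 7 of 30 above 0.1). For different-numbered libraries these were -0.475 to 0.218 (median -0.0125, 8 of 60 above 0.1). These ranges overlap, so whether the numbers pair some of the samples was not settled. With the replicate block all 63 again kept direction and call, with 2 higher and 1 lower at 1 h. Without 1 library, 3 calls were lost in at least 1 case (CDK6 and CDKN2D at 1 h, CDKN1B from 1 to 3 h). Of the 9 genes, 2 were higher at 1 h, but 1 with no filter or no variance trend, 0 with spike-in scaling or only the compared groups, and 0 to 2 without 1 library; 1 was lower, but 2 with median-ratio and 0 with spike-in scaling. Spike-in scaling also left 1 higher and 2 lower at 3 h, 1 lower at 24 h, 0 higher from 1 to 3 h, 0 lower from 3 to 6 h and 0 higher from 6 to 24 h. Few of all 12016 genes tested with spike-in scaling were called in several of these comparisons. At 1 h, 350 were higher and 122 lower, at 3 h 412 and 2526, and at 24 h 659 were lower. Between times, 81 were higher from 1 to 3 h, 232 lower from 3 to 6 h and 1642 higher from 6 to 24 h. From 3 to 6 h, 2 of the 9 genes were lower, but 6 with median-ratio scaling and 4 with length correction. All tested genes had 29.9% lower with median-ratio scaling and 3482 of 12002 lower with length correction. From 6 to 24 h, 0 of the 9 genes were lower, but 1 with median-ratio scaling, 2 with length correction, and 0 to 1 without 1 library (CCND3 is called without DMSO replicate 2 or KB528 6 h replicate 1). All tested genes had 3619 of 11998 lower with median-ratio scaling and 4525 of 12002 with length correction in this step. Signs turned, with spike-in scaling, for CCND3 at 1 h (-0.042), 3 h (-0.14) and from 1 to 3 h (-0.096), CCNE1 from 3 to 6 h (0.031) and 6 to 24 h (-0.042), CCNE2 from 3 to 6 h (0.32), CDK2 at 3 h (-0.22) and from 6 to 24 h (-0.041), CDK4 at 6 h (0.12), CDK6 from 3 to 6 h (0.24), CDKN1B from 1 to 3 h (-0.0030) and 6 to 24 h (-0.13), and CDKN2D from 1 to 3 h (-0.082) and 3 to 6 h (0.33). With median-ratio scaling they turned for CCND3 at 1 h (-0.037), CDK2 at 3 h (-0.0020) and CDK4 from 3 to 6 h (-0.099), with length correction for CCND3 at 1 h (-0.0068), CDK4 from 3 to 6 h (-0.039) and CDKN1B from 6 to 24 h (-0.020), and with spike-ins out of the total for CDK4 from 3 to 6 h (-0.0027). Without 1 library, CCND3 at 1 h ran from -0.042 to 0.063 and CDK2 at 3 h from -0.056 to 0.044. The cause of these changes was not tested. Depth limits CDKN2C, which has a test only with no filter.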
